A study of Mus musculus with 4 samples.

Results

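The 6 genes described here, Il17a, Il17f, Il23r, Tmem176a, Tmem176b and Aqp3, belong to the program of NKT17 cells, the interleukin 17 producing subset of natural killer T (NKT) cells, and were chosen by name. All windows of the deposited table that overlap the annotated gene (mm10) with 1000 bp on each side were taken, which gave 95 windows of 100 bp out of 1048575 listed ones, and 6 loci out of 8480 protein-coding loci with a listed window. The genes lie on chromosomes 1 (Il17a, Il17f), 6 (Il23r, Tmem176a, Tmem176b) and 4 (Aqp3). Tmem176a lies inside the annotated span of Tmem176b, and all 13 of its windows are also windows of Tmem176b.

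DNA methylation was measured by MeDIP-seq, in which an antibody to 5-methylcytosine captures fragments of sonicated DNA for sequencing, with uncaptured DNA as the input. The 4 groups were PLZFon MeDIP, WT MeDIP, PLZFon input and WT input, all from NKT cells sorted from C57BL/6 thymus with CD1 tetramers, with 1 library in each. PLZF is the zinc finger factor (gene Zbtb16) of innate-like T cells. What the PLZFon allele is, and the age and number of the mice, is not given in the labels. An antibody label gives none for PLZFon MeDIP and names the antibody for the WT input, against the titles, which were followed. Without replicates, every difference below is one between libraries and no p-value was computed. Library totals, recovered from the deposited values, were 10633609 reads (PLZFon MeDIP), 15141449 (WT MeDIP), 50374582 (PLZFon input) and 60683037 (WT input).

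NKT17 cells respond to interleukin 23 from myeloid cells, which signals through the receptor chain IL-23R and sustains the release of interleukins 17A and 17F. Methylation of CpG sites at a gene's start is commonly associated with silence, while methylation within the transcribed body is found in active genes as well. In MeDIP, more reads over a stretch of DNA mean more methylated CpGs in it, so a value depends on the CpG content as well as on the methylated share.

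The CpGs before a gene start limit the signal MeDIP can give there, and 4 of the 6 are shown to compare a start with listed windows (Il17a) with starts that had none. They are the 250 bases before the RefSeq start (GRCm38.p6, the primary assembly of mm10), 5′ to 3′ along the gene, with each CpG in capitals. Il17a is on the plus strand (chr1:20730655-20730904), and Il17f (chr1:20784271-20784520), Il23r (chr6:67491856-67492105) and Aqp3 (chr4:41098184-41098433) are on the minus strand.
Il17a: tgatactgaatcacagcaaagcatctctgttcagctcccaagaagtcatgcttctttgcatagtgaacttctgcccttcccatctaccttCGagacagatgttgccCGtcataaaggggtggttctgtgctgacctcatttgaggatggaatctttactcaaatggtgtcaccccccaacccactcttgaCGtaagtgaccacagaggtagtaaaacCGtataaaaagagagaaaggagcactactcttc
Il17f: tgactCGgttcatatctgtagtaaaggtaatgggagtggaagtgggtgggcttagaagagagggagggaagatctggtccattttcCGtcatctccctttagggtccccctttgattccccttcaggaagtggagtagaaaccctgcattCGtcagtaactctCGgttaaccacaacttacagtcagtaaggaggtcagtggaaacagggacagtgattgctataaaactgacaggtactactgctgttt
Il23r: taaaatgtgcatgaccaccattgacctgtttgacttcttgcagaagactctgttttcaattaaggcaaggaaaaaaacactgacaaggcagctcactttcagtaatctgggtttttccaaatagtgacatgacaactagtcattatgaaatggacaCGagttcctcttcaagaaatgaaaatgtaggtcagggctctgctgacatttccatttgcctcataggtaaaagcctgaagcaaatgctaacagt
Aqp3: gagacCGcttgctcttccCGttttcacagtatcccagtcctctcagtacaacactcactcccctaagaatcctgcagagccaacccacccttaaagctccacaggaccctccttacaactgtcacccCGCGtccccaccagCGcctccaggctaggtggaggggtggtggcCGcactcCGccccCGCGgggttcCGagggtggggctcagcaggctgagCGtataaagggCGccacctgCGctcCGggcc

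Il17a and Il17f each have 4 CpGs in these 250 bases, Il23r has 1 and Aqp3 has 14. Tmem176a has 1 and Tmem176b has 3 before the start used, 1 of 2 and 1 of 3 in the RefSeq table. Il17a was the only member with a listed window in this stretch. Its CpGs at positions -60 and -33 from the start lie in the listed window 20730801 to 20730900, whose CpG factor is 2. Those at -160 and -144 lie in no listed window. The CpG factor is the authors' CpG score of a window, and it equalled the number of CpGs counted in the RefSeq sequence in 97.5% of 2642 windows inside promoters. Over the 15055 promoters in the range of the table, a listed window was present in 35.5% of those with 4 to 6 CpGs, 6.95% of those with 0 or 1 and 4.65% of those with 12 to 19. A window was listed only with at least 10 reads over both MeDIP libraries, so an unlisted start is not a start without methylation.

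**Figure D1:**
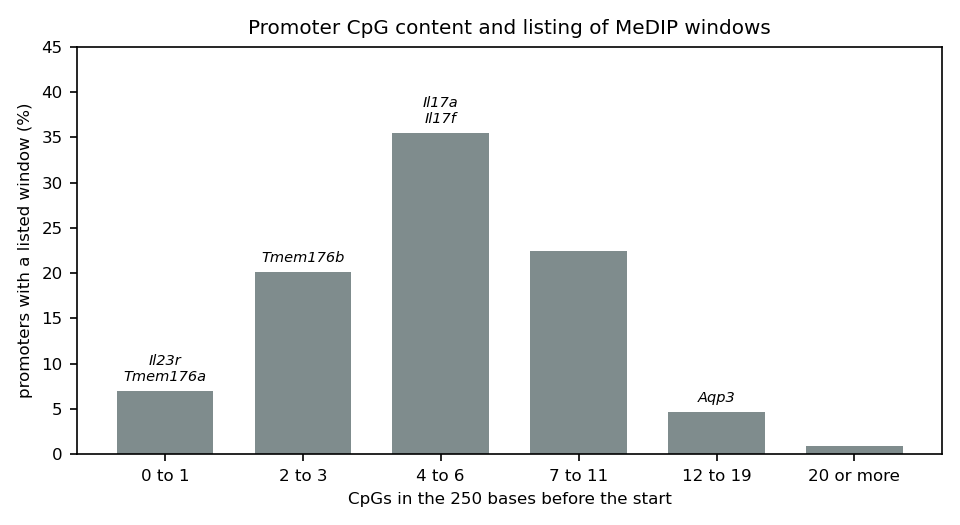
Share of promoters (%, bars) with at least 1 listed window, by the number of CpGs in the 250 bases before the start, for 15055 promoters on chromosomes 1 to 7. The members' names stand above their class. Il17a and Il17f fall in the class listed most often (35.5%), Aqp3 in the class of 12 to 19 CpGs (4.65%), and of the 6 only Il17a has a listed window there.

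The letters AGGTCA, a half-site bound by many nuclear receptors, were searched on both strands of the same 250 bases (TGACCT is the other strand). Il17a holds 1 match, at position -120 from the start on the opposite strand. Il17f holds 1, at -58, and Il23r holds 2, at -229 and -66. Tmem176a, Tmem176b and Aqp3 hold none, and 14% of 32851 promoters hold at least 1. A match in letters is a description and not a bound site.

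In the windows listed for their MeDIP reads, MeDIP over input was above 1 at all 6 loci in both genotypes. The interval included 1 only at Il17f in PLZFon cells (2.42, 0.763 to 6.84). The ratio of depth-scaled MeDIP to input reads lay between 2.42 (Il17f) and 5 (Tmem176b) in PLZFon cells and between 2.82 (Il23r) and 4.53 (Il17f) in WT cells. The medians over 7668 protein-coding loci with at least 20 MeDIP reads were 3.97 in PLZFon and 4.18 in WT cells. Listing by MeDIP reads raises all of these values, so a value above 1 does not by itself show enrichment at these loci. Over all listed windows MeDIP over input was 4.22 in PLZFon and 4.44 in WT cells. Levels per window were modest, as the plot of mean levels shows: Tmem176b had 0.737 PLZFon and 0.69 WT MeDIP RPM (reads scaled to the library total) per listed window, against 0.828 and 0.859 RPM over all listed windows. Il17f had the lowest PLZFon MeDIP level, at 0.392 RPM, and Il23r the lowest in WT, at 0.54 RPM. Tmem176a had the highest WT level, at 0.828 RPM, close to the WT level over all listed windows.

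**Figure D2:**
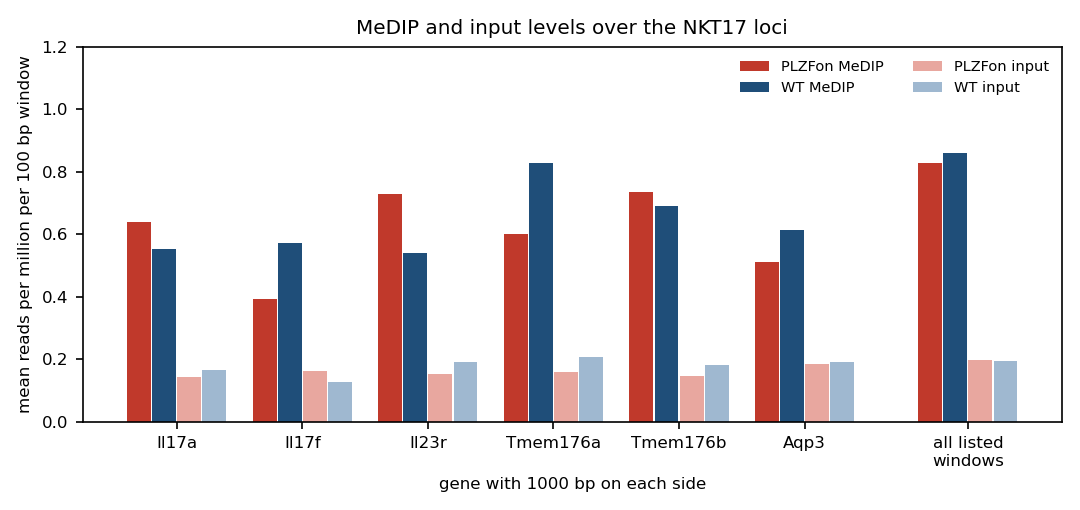
Mean depth-scaled reads (RPM) per listed 100 bp window (vertical axis) over each NKT17 locus and over all listed windows, for the 4 libraries (1 bar each). MeDIP bars stand above input bars at every locus, in windows listed for their MeDIP reads. PLZFon MeDIP is above WT MeDIP at Il17a, Il23r and Tmem176b and below it at Il17f, Tmem176a and Aqp3.

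The genotype comparison asked whether these loci differed in captured methylated DNA between PLZFon and WT NKT cells. None of the 6 did so beyond counting error: the exact (Clopper-Pearson) 95% interval of the PLZFon over WT ratio included equality at all of them. Ratios were above 1 at Il23r, Il17a and Tmem176b and below 1 at Aqp3, Tmem176a and Il17f. The rule of size asked for 20 or more MeDIP reads, a 2-fold or larger ratio (up or down) and an interval that leaves out 1. Enough reads were present at 5 members and 0 passed. Of 7668 loci 0.443% passed, 7 higher in PLZFon (0.0913%) and 27 lower (0.352%), or 9 and 19 with TMM factors. Intervals cover counting error only, since each group has 1 library. They also make no allowance for PCR copies, which are not independent molecules. Sums over windows were divided by 4, the windows an input read spans. MeDIP reads may span more, which would widen the intervals. Reads are understated where fewer than 4 of those are listed. Fewer cells of a subset and a different methylation per cell cannot be told apart in these sorted pools.

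**Figure D3:**
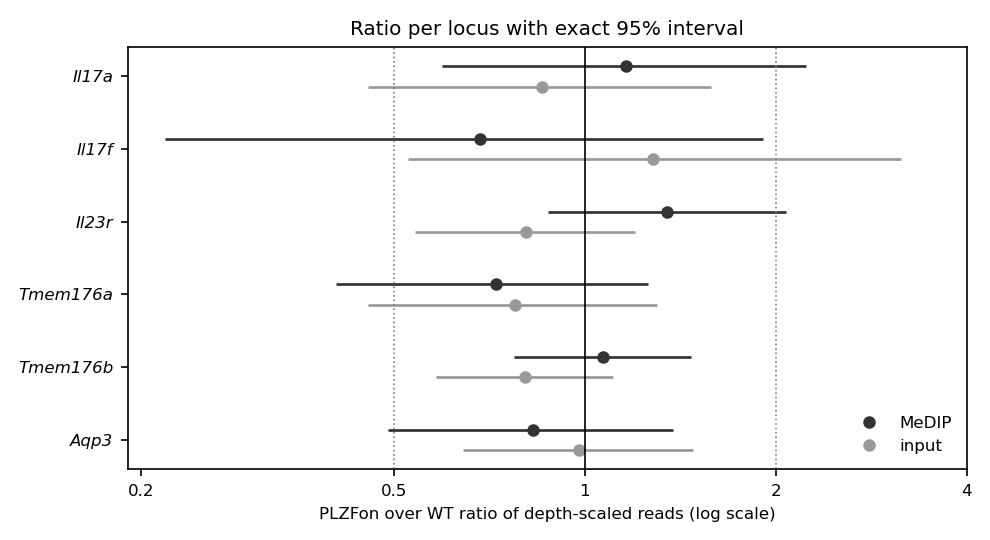
PLZFon over WT ratio of depth-scaled reads (log axis) for each locus, with MeDIP in black and input in grey, points for the ratio and lines for the exact 95% interval. Dotted lines mark a 2-fold difference, and all 12 lines cross equality.

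Il17a, the gene of the signature cytokine of NKT17 cells, showed no difference beyond counting error. Its listed signal lay mostly in the stretch upstream of its start and over the start. Its 11 listed windows held 75 PLZFon and 92 WT MeDIP window counts, and 79 and 111 in the inputs. The ratio was 1.16 (0.596 to 2.23), with an input ratio of 0.857 (0.456 to 1.58). Most of this signal came from a block of 8 windows from -804 to 295 bases from the start (20730101 to 20731200). A block is a run of listed windows with gaps of up to 300 bp. In this block no window was listed between 20730500 and 20730801, so its upstream windows stand apart from those over the start. There the MeDIP reads were 4.09 times the input in PLZFon and 4.11 times in WT cells, and the PLZFon over WT ratio was 1.05 (0.492 to 2.2).

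The window just before the Il17a start (20730801 to 20730900) had 7 PLZFon and 9 WT MeDIP reads, with 12 and 11 input reads. In the window with the most reads (20730201 to 20730300, CpG factor 2), PLZFon had 9 and WT 13, which scales to 0.986 (0.372 to 2.49). Its neighbour 20730101 to 20730200 had 10 PLZFon and 11 WT reads, or 1.29 (0.493 to 3.36). The start and the stretch upstream thus carried most of the signal listed for this gene, in both libraries. A smaller block inside the gene (20732101 to 20732400) had 6 PLZFon reads in each window and 4 to 6 WT reads, a ratio of 1.71 (0.338 to 9.3) beside an input ratio of 0.435 (0.0819 to 1.69).

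Il17f, whose product pairs with interleukin 17A, lies 42650 bp from Il17a and had the fewest reads of the 6. Its 6 listed windows of 102 held 25 PLZFon and 52 WT MeDIP window counts, or 6.25 and 13 reads, just under the minimum of 20 in sum. PLZFon over WT came to 0.685 (0.218 to 1.91), beside 1.28 (0.526 to 3.15) in the inputs. Its windows formed 2 blocks on either side of equality. The block 6170 to 6569 bases past the start (20777701 to 20778100) had 2 to 4 PLZFon reads per window and 8 to 12 WT reads, a ratio of 0.373 (0.0605 to 1.48). Its window 20777801 to 20777900, the one with the most reads in the gene, had 4 PLZFon and 12 WT reads (0.475, 0.112 to 1.57). The block 2370 to 2569 bases past the start had 6 and 8 PLZFon reads, against 5 in each window in WT, a ratio of 1.99 (0.285 to 17.1). Both intervals include equality.

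Il23r, the receptor chain that gives NKT17 cells their response to interleukin 23, had very few listed windows for its length. Of 710 windows across the locus 23 were listed, or 3.24%, lower than in all but 4.56% of protein-coding loci (median 15%). They held 178 PLZFon and 188 WT MeDIP window counts, and 179 and 267 in the inputs. At 1.35 (0.874 to 2.08) the ratio was above that of 96.3% of loci, most of which had more reads, and below 1.51, the 95th percentile of the 2371 loci with 20 to 100 reads. The inputs gave 0.808 (0.54 to 1.2). WT MeDIP over input was 2.82 (1.9 to 4.16), and PLZFon MeDIP over input was 4.71 (3.04 to 7.3). The PLZFon level was above WT in 20 of the 23 windows, which are not independent, since neighbours share reads. Some of the 20 had equal reads in both libraries, as at 67470201 to 67470300 (7 and 7, ratio 1.42), where only depth scaling set the direction. The same share over all listed windows is not given here, so the count is a description.

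The Il23r windows formed 7 blocks, of which 1 went the other way. At 30255 to 30454 bases past the start (67461401 to 67461600) both windows held 6 reads in PLZFon and 18 in WT, or 0.475 each (0.154 to 1.25). At 58555 to 58754 bases (67433101 to 67433300) both held 11 reads in PLZFon and 5 in WT, or 3.13 (1 to 11.5) per window on 16 reads, under the minimum of 20. The other blocks lay between 1.04 and 1.59. The blocks with the most reads, at 18655 to 19254 and 7455 to 7954 bases, had ratios of 1.48 (0.622 to 3.54) and 1.5 (0.561 to 4.02), while their input ratios were 0.849 and 0.662. The window 67472901 to 67473000 had 11 reads in PLZFon and 11 in WT (1.42, 0.56 to 3.62), over 10 and 18 input reads. The part of the input difference in the Il23r ratio was not tested.

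Tmem176a and Tmem176b encode cation channel proteins of intracellular membranes that are expressed in interleukin 17 producing lymphocytes, and the starts used for them lie side by side, in opposite directions. Over the windows they share, Tmem176a had 83 PLZFon and 163 WT MeDIP window counts, and 105 and 163 in the inputs. The ratio was 0.725 (0.406 to 1.26), with an input ratio of 0.776 (0.456 to 1.3), and both intervals included equality. Input ratios were below 1 at 5 of the 6 members, among them Il17a, Il23r and Tmem176b, whose MeDIP ratios were above 1. The part of the input in the Tmem176a ratio was not tested. The PLZFon level was below WT in 12 of the 13 windows, which are not independent, since neighbours share reads. This count too has no share over all listed windows beside it. A single block held 12 of the windows, with a ratio of 0.721 (0.397 to 1.27). The window with the most reads (48843301 to 48843400, CpG factor 4) held 9 reads in PLZFon and 18 in WT, or 0.712 (0.282 to 1.67). The ratios of the 6 windows with at least 20 reads ran from 0.623 (48843401 to 48843500, 7 PLZFon and 16 WT reads) to 0.767 (48844701 to 48844800, 7 and 13).

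Tmem176b had the most MeDIP reads of the 6, 282 PLZFon and 376 WT window counts in 36 windows, and its ratio was 1.07 (0.773 to 1.47). This sum joins stretches on either side of equality. The 23 windows outside Tmem176a had 199 PLZFon and 213 WT counts, a ratio of 1.33 (0.885 to 2), against 0.725 in the shared ones, and the intervals overlap. No window was listed between the one that ends at 48838800 and the one that begins at 48842001, the stretch that holds the starts used for both genes. The annotated span of Tmem176b runs on to 48845948, past the shared windows.

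The far end of Tmem176b held the window with the most MeDIP reads over both libraries among the 6 loci, although in WT alone windows of Aqp3, Il23r and Tmem176a had more. In a block of 7 windows 6874 to 7573 bases past its start (48833801 to 48834500), PLZFon reads ran from 7 to 19 per window and WT reads from 9 to 17. The window with the most reads (48834001 to 48834100, CpG factor 6) held 18 reads in PLZFon and 17 in WT, or 1.51 (0.733 to 3.11), over 3 and 5 input reads. The highest ratio, 1.94 (0.833 to 4.67), was at 48834301 to 48834400, with 15 PLZFon and 11 WT reads. MeDIP over input in this block was 12 in PLZFon and 4.72 in WT cells. The PLZFon input was low there, 9.25 reads against 19.8 in WT, a ratio of 0.564 (0.228 to 1.29), while the MeDIP ratio was 1.44 (0.776 to 2.67).

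**Figure D4:**
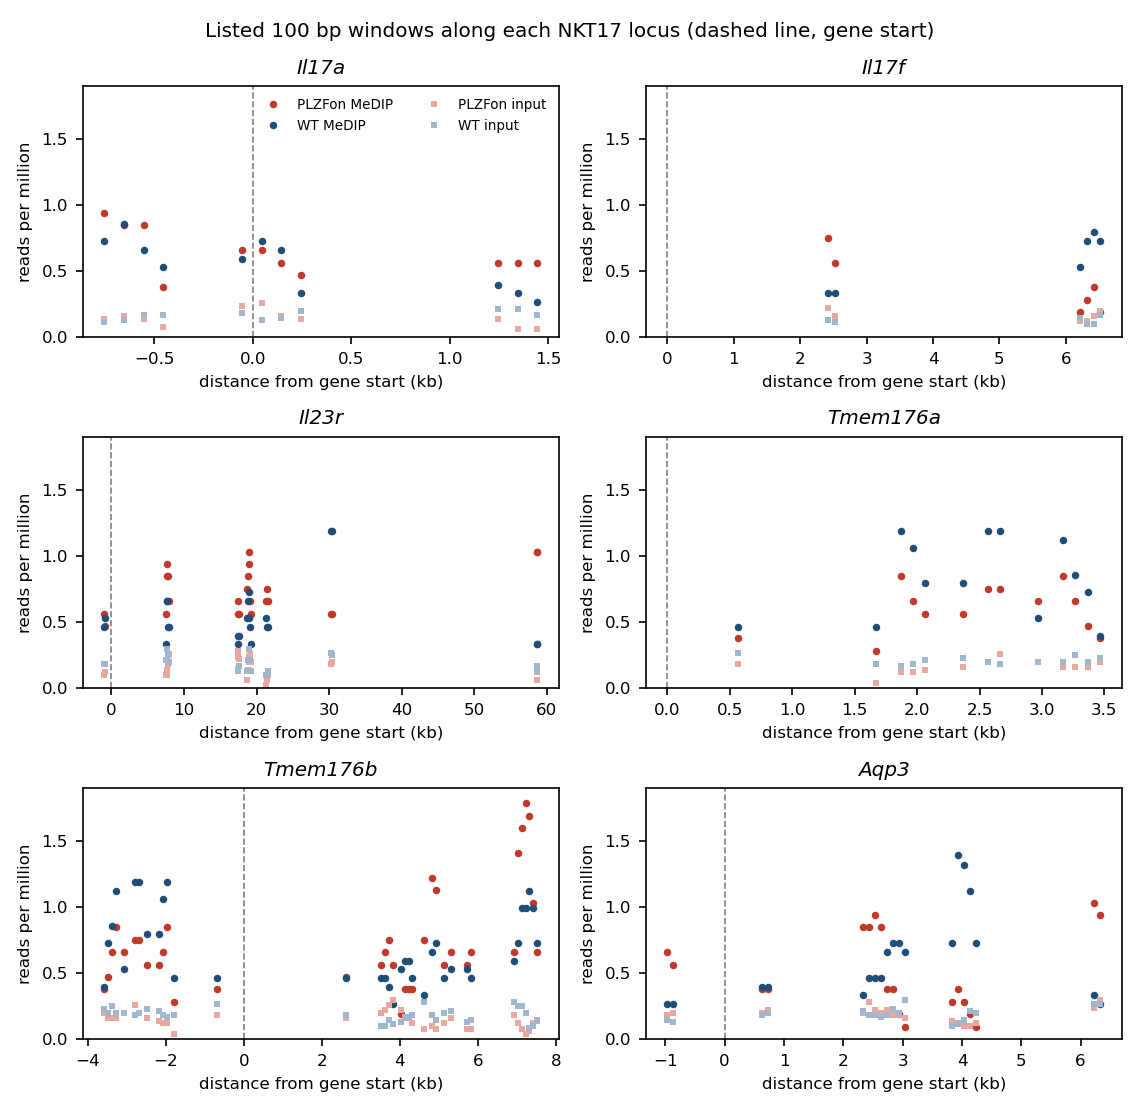
Depth-scaled reads (RPM, vertical axis) in each listed 100 bp window against its distance from the gene start in kb, for PLZFon MeDIP and WT MeDIP (circles) and the inputs (squares), 1 panel per gene. Around the Il17a start the MeDIP points intermingle, in Tmem176a PLZFon lies below WT in 12 of 13 windows, and about 4 kb into Aqp3 the 5 PLZFon points lie at 0.094 to 0.376 and the WT points at 0.726 to 1.39. Neighbouring points share reads and are not independent.

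Aqp3, which encodes a channel for water and glycerol, held the only windows that passed the rule of size. Its 19 windows had 103 PLZFon and 177 WT MeDIP window counts, and 178 and 219 in the inputs. Over the locus this gave 0.829 (0.489 to 1.38), and 0.979 (0.644 to 1.48) in the inputs. The signal was uneven, and 1 block of 5 windows, 3783 to 4282 bases past the start (41093901 to 41094400), stood apart. There the windows in genome order had 1, 2, 3, 4 and 3 PLZFon reads, against 11, 17, 20, 21 and 11 WT reads. All 5 PLZFon values lie below all 5 WT values, and because a read spans about 4 or more windows they count as 1 observation.

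In that Aqp3 block the reads came to 3.25 in PLZFon and 20 in WT, and the ratio was 0.231 (0.0478 to 0.753). PLZFon MeDIP over input was 2.12 and WT MeDIP over input 6.82. The inputs had 7.25 and 11.8 reads, a ratio of 0.743 (0.251 to 2.04). Single windows gave 0.214 (0.0406 to 0.72) at 41094101 to 41094200 and 0.271 (0.0677 to 0.804) at 41094201 to 41094300. These 2 were the only ones that passed among the 21 member windows with at least 20 MeDIP reads, and both were lower in PLZFon. Over all 409114 such windows 3.3% passed, 4618 higher (1.13%) and 8876 lower (2.17%), or 7378 and 7099 with TMM factors. The same rule on the inputs passed 3.36% of windows. With a minimum of 10 reads it passed 2.96%.

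Of the 8 member blocks with at least 20 reads, this Aqp3 block was the 1 that passed, where 1.89% of 79826 blocks did, 540 higher (0.676%) and 970 lower (1.22%), or 701 and 731 with TMM factors. The other 7 had ratios between 0.721 and 1.5 with intervals including equality. With window sums divided by 6 it had 15.5 reads over both libraries and a ratio of 0.231 (0.0286 to 0.976), short of the 20-read minimum, and 0 blocks passed. The blocks were defined after the values had been seen, and 1 block of 8 is no result about these genes as a group.

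The rest of Aqp3 did not follow that block. In the next block toward the start (41095101 to 41095900) the first 4 windows had 1 to 4 PLZFon and 10 or 11 WT reads, and the last 4 had 9 or 10 PLZFon and 5 to 7 WT reads, which left a block ratio of 1.01 (0.438 to 2.23). Beyond the gene's far end the windows 41091801 to 41091900 and 41091901 to 41092000 had 10 and 11 PLZFon reads, against 4 and 5 in WT, and inputs of 15 and 12 against 16 and 16. The 14 CpGs before the start lay in no listed window, and the nearest windows past the start, at 583 to 782 bases with CpG factors of 6 and 3, had 4 PLZFon and 6 WT reads each. Exons and introns are not resolved by the gene table used here.

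In the authors' deposited table, 0 of the 95 windows had an adjusted p below 0.05, where 0.0144% of all listed windows did. Unadjusted p-values in the authors' deposited table were below 0.05 in 7 of the 95 windows, 5 in Aqp3 and 2 in Il23r, where 3.31% of all listed windows were. Neighbouring windows share reads, so these 7 are not independent observations. The lowest in the authors' deposited table was 0.00723, at 41094101 to 41094200 in Aqp3, with a log2 fold change of -2.14 and an adjusted p of 1. These p-values come from 1 library per group.

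Other genes of the interleukin 17 and 23 pathway and of NKT17 cells were taken from a list of 52, of which 17 lay in the range of the table and all 17 had at least 20 reads. None passed the rule of size in either direction (0.443% of all loci), and no interval excluded equality. Their median log2 ratio was -0.09, beside -0.06 over all protein-coding loci. The members' median was 0.09 over the 5 with at least 20 reads and -0.09 with Il17f included, so it has no stable sign. Il1b, the gene of interleukin 1β, had the ratio farthest from equality, 1.78 (0.934 to 3.42) with an input ratio of 0.551. This rested on 43.2 reads in 5 listed windows of 87. The value is the most extreme of 17, and lay above 1.51, the 95th percentile of loci with 20 to 100 reads. Tgfbr1, a receptor gene for TGF-β, which takes part in interleukin 17 cell differentiation, followed with 1.28 (0.755 to 2.15). Receptor genes for interleukin 17, Il17ra (0.906, 0.683 to 1.2), Il17rc (1.01, 0.726 to 1.39) and Il17re (1.16, 0.7 to 1.9), had intervals on both sides of equality.

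**Figure D5:**
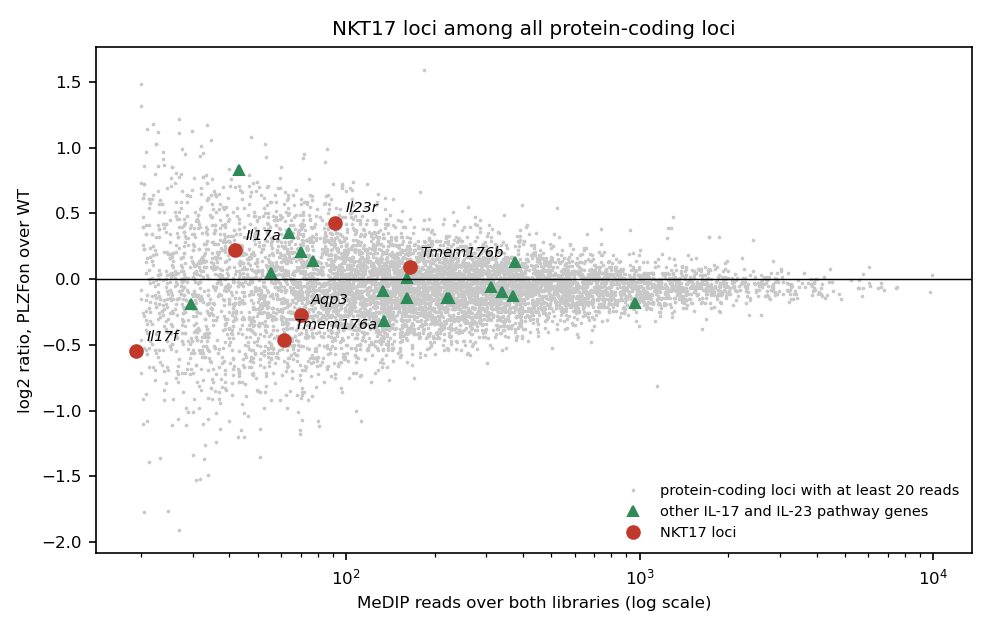
Log2 ratio of PLZFon over WT MeDIP reads (vertical axis) against the MeDIP reads of a locus over both libraries (log axis), for protein-coding loci with at least 20 reads (grey), other pathway genes (green triangles) and the NKT17 loci (red). The NKT17 loci, from -0.55 at Il17f to 0.43 at Il23r, lie inside the spread of grey loci with similar read numbers.

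Nearby protein-coding genes were set beside the members. Mcm3, a replicative helicase gene 17692 bp from Il17f, held 199 reads in PLZFon and 280.2 in WT, or 1.01 (0.839 to 1.22), and 40.5% of its windows were listed, against 5.88% for Il17f. Pkhd1, a cilium gene on the other side of Il17a, had a ratio of 1.06 (0.915 to 1.22), with 3.77% of its windows listed. Il12rb2, the interleukin 12 receptor gene beside Il23r, had 0.907 (0.685 to 1.19), with 5.52% of its windows listed, against 3.24% for Il23r.

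Beside Aqp3, the aquaporin gene Aqp7 had 0.875 (0.69 to 1.11) and the nucleolar protein gene Nol6 had 1.03 (0.769 to 1.37), with 35.8% of windows listed in both and 25.3% in Aqp3. Beside Tmem176a and Tmem176b, the lymphocyte GTPase gene Gimap3 had 0.872 (0.472 to 1.57) and Gm7932 had 0.921 (0.39 to 2.09). The interval of every one of these neighbours included equality.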

How the data were processed

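Per the submitters' processing notes, reads were aligned with BWA to mm10 and edgeR was used; versions and the window counter are not given in the sources used here. The deposited table holds raw counts per window of 100 bp from sorted, unique-filtered alignments, per the file headers. RPKM values by the authors were used here only to recover library totals. The authors' CpG factor, a score, gave CpG content, and their log2 fold changes and p-values in the deposited table are quoted as such. Their relative methylation score was not used here. The table ends on chromosome 7 at position 139972600.

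Ratios are depth-scaled reads with exact (Clopper-Pearson) 95% intervals (scipy 1.17.1), and the calculation was tested on simulated data with independent reads at loci of at least 100 reads. Of the members only Tmem176b, with 164 reads, had that many. The test therefore did not cover the other members or the Aqp3 block. In the inputs the squared difference between windows levelled off at a distance of 4 windows, hence the division by 4. In the MeDIP libraries it rose further, to 5.38 at 6 windows in PLZFon and 6.21 at 8 in WT (4.52 and 5.03 at 4), so division by 6 was added after seeing the data. TMM factors came from edgeR 4.0.16. Genes came from RefSeq (GRCm38.p6), where 51 of the 52 pathway symbols matched. The members and lists were chosen with earlier results of these data known. Named were the 6 members, the 2 pathway loci farthest from equality with at least 20 reads, the neighbours, and in each member the windows with the most reads and the highest and lowest ratio at 20 reads or more; other windows, blocks and the Il17 receptors were named after their values were seen. The rule also named 1 pathway gene and 1 neighbour that are not reported here. Alternatives were other scalings, flanks, minimums, ratios and divisions.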

Additional observations from a re-analysis of the deposited data

How the results depend on the processing

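No paired analysis was possible because each group has 1 library, and for the same reason no replicate could be left out. All 72 recomputed MeDIP ratios of the 6 loci lay inside the 95% interval of the reported value, but some of them could not move. Division by 3 or by 6 keeps every ratio. Leaving out windows with at least 60 input reads removed no member window, since the highest had 31. Without flanks Il17f, Tmem176a and Tmem176b also kept their ratios of 0.685, 0.725 and 1.07. Taking 1 window in 4, which divides no counts, moved Il23r to 1.87 (1.15 to 3.06), the 1 interval of 72 that excluded equality, but the 3 other offsets, added after seeing the data, gave 1.37, 1.09 and 1.3. For Aqp3 it gave 0.57, 0.6, 1.05 and 0.949, for Il17f 0.356, 0.712, 1.01 and 0.388, and for Il17a 0.921, 1.17, 1.07 and 1.5. Without flanks Aqp3 stood at 0.614 (0.328 to 1.1). TMM factors moved the median log2 ratio of all loci by 0.05.

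Scaling by the listed windows sets MeDIP over input relative to all listed windows by construction. It gave, in PLZFon and WT, 1.07 and 0.748 for Il17a, 0.573 and 1.02 for Il17f, 1.12 and 0.636 for Il23r, 0.887 and 0.903 for Tmem176a, 1.19 and 0.851 for Tmem176b, and 0.649 and 0.73 for Aqp3. The other 36 recomputed values of MeDIP over input stayed inside the reported intervals. Those that left out windows of high input could not move, since no member window reached that limit. Without flanks Il17f, Tmem176a and Tmem176b also kept their values of MeDIP over input.

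With a minimum of 10 reads, 4 member windows were higher and 4 lower (2.96% of all listed windows passed). Over all protein-coding loci a minimum of 40 reads left 3 higher and 16 lower, and a ratio of 1.5 gave 30 and 76; 0 members passed under either. Of the 5 alternatives added for blocks, the Aqp3 block passed under all but division by 6, which left 0 blocks lower because its reads fell under the minimum. Leaving out windows of high input, 1 of the 5, removed none of its windows. Division by 6 keeps every ratio and widens the interval, to 0.788 to 2.3 for Il23r and 0.716 to 1.58 for Tmem176b. Depth was 19.2 to 164 MeDIP reads per locus, where, divided by 4, the narrowest interval (Tmem176b) ran from 0.773 to 1.47 and the widest (Il17f) from 0.218 to 1.91.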
